A study of Mus musculus with 2 samples.

Results

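Keratin-high non-cycling hepatoma cells were the top 25% of non-cycling tumour cells by Krt7, Krt14 and Krt19 transcript in tumours of Hepa1-6, a mouse hepatoma cell line. They were chosen in each library by the same steps. A barcode was kept from 500 UMIs (unique molecular identifiers, each counting 1 captured transcript) and 300 genes upward, if mitochondrial transcripts made up no more than 15% of its UMIs. Of these, hepatoma cells were those with at least 500 CPM of Krt8 and Krt18 (CPM, UMIs of the named genes in each 1000000 UMIs) and at most 1 Ptprc UMI (Ptprc encodes CD45), and cells with 300 CPM or more of Mki67, Top2a and Cenpf were left out as cycling. The top 25% by CPM of Krt7, Krt14 and Krt19 made up the keratin-high cells. This gave 442 cells of 1771 in the CD147-LYTACs library and 394 of 1576 in the control library, 836 of 15267 kept barcodes in all. The other 75%, called keratin-lower here, were 1329 and 1182 cells.

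The LYTACs library came from Hepa1-6 tumours given 40 mg/kg CD147-LYTACs every 3 days for 4 doses, and the control library from Hepa1-6 tumours whose treatment label reads control. Tumours were taken on day 12, CD45- and CD45+ cells were sorted apart and joined again at 1 to 3, and 10x Genomics Chromium libraries were made. LYTACs are molecules that bring a surface protein to the lysosome, and their target CD147, also called basigin (gene Bsg), chaperones lactate transporters at the cell membrane. The labels leave the route open (intraperitoneal or intravenous) and do not say how many mice or tumours were pooled, the site of the tumours or the age of the mice. With 1 library on each side, differences between LYTACs and control have no replicate check and no p-value, and the 95% intervals cover counting error only. The rule used the values of these same cells, so keratin-high against keratin-lower is a description without a test.

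Keratins are the intermediate filament proteins of epithelia and work as pairs of a type II and a type I chain. Krt8 with Krt18 is the pair of simple epithelia and of hepatocytes, Krt7 and Krt19 are typical of bile duct cells in the liver, and Krt14 belongs to the basal layer of stratified epithelia. Krt6a and Krt16 are induced in wounded or stressed squamous epithelium. Il34 encodes a secreted ligand of the CSF1 receptor, which macrophages use.

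Upstream sequence is shown for Krt7, which the rule used, and for Sfn, a gene the rule did not use whose level across cells was among those most like the summed keratins. The windows are the 250 bases before the annotated start in RefSeq (GRCm38.p6), written 5′ to 3′ on the gene's strand, at chr15:101412153-101412402 (plus strand) for Krt7 and chr4:133602169-133602418 (minus strand) for Sfn. Capitals mark matches to GGGCGG on either strand, the core of the motif bound by SP1.
Krt7: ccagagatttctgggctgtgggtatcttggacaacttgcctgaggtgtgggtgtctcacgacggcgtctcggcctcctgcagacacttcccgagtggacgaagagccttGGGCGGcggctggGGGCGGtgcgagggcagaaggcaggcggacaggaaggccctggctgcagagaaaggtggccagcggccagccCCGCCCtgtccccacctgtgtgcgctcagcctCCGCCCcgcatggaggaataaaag
Sfn: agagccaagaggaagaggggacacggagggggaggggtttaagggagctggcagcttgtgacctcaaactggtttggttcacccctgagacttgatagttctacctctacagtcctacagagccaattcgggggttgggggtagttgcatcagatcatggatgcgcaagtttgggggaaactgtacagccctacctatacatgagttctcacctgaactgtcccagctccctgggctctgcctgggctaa
The Krt7 window held 4 matches to GGGCGG, against 0 in the Sfn window, and 32.7% of 32817 RefSeq windows of this length held at least 1. Neither window held TGANTCA (AP-1), GGAATG (TEAD) or TATAAA on either strand, which 6.75%, 12.6% and 12.4% of all windows held. So the windows of these genes, which were high in the same cells, shared none of the 4 motifs searched, and nothing follows from this about the factors.

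The keratin level was a range, not a separate population. The lowest cell inside the top 25% had 2246.1 CPM of Krt7, Krt14 and Krt19 (the rule keratins) in the LYTACs library and 2475.19 in the control library, and the highest cell outside had 2243.05 and 2474.68. Within 10% of the threshold lay 166 LYTACs cells (9.37%) and 179 control cells (11.4%). Median rule keratin levels were 3027 CPM in keratin-high and 1121 in keratin-lower LYTACs cells, and 3147 in keratin-high and 1256 in keratin-lower control cells. The keratin-lower cells held no rule keratin UMI in 153 LYTACs and 52 control cells. With the control threshold applied to both libraries, 20.4% of LYTACs cells (interval 18.6 to 22.4%) lay above it. The control share of 25% was fixed by the rule and is not an estimate, so it has no interval. Among cells of at least 10000 UMIs, 23.2% of LYTACs cells (21.1 to 25.4%) and 25.3% of control cells lay above this threshold. It was set from the control cells themselves and the intervals cover counting error only, so a difference between the libraries was not tested.

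**Figure D1:**
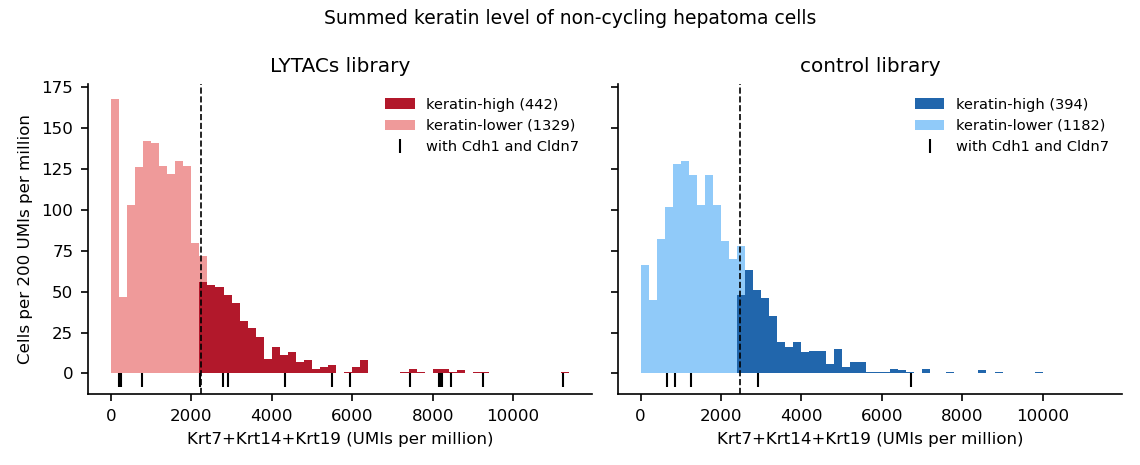
Histogram of the summed Krt7, Krt14 and Krt19 level of every non-cycling hepatoma cell (x axis, CPM; y axis, cells per bin), LYTACs left and control right, with keratin-high cells in dark and keratin-lower cells in light colour and the lowest keratin-high level as a dashed line. Ticks under the axis are barcodes with Cdh1 and Cldn7 transcripts. The counts decline with no gap at the threshold of 2246 and 2475 CPM.

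The keratin-high cells were deeply sequenced. Their median was 44446.5 UMIs in the LYTACs and 46915.5 in the control library, against 33338 and 40090 in keratin-lower cells. The sums over keratin-high cells were 20909141 UMIs in the LYTACs and 18101560 in the control library. Cells under 5000 UMIs made up 4.52% of keratin-high and 16.9% of keratin-lower LYTACs cells, and 9.64% of keratin-high and 9.73% of keratin-lower control cells. Such cells held at most 0.779% of the UMIs of any of these sets. The libraries shared 24 barcodes, 1 of them among the keratin-high cells.

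A small set of barcodes stood apart from the other keratin-high cells, and it was noticed after the values had been seen. It was counted as barcodes with at least 3 UMIs of Cdh1 (E-cadherin) and at least 2 of Cldn7 (the tight junction protein claudin-7). There were 12 among the LYTACs keratin-high cells (2.71%, exact interval 1.41 to 4.69%) and 2 among the control keratin-high cells (0.508%, 0.0615 to 1.82%), and 4 and 3 among the LYTACs and control keratin-lower cells. In the LYTACs library they were 6 of the 10 cells with the most rule keratin, and their median rule keratin level was 7797 CPM against 3009 in the other keratin-high cells. Most of that was Krt19, at 6204 CPM against 1384 in the other LYTACs keratin-high cells, while Krt7 was at 865 against 1245 and Krt14 at 28.2 against 664.

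These barcodes lacked the transcripts of the hepatoma line. In the 12 LYTACs barcodes Alb (albumin) was at 5.13 CPM against 1308 in the other keratin-high cells, Afp (alpha-fetoprotein) at 2.57 against 191, Il34 at 2.57 against 319, and Onecut2, a liver transcription factor gene, had 0 UMIs against 338 CPM. The 2 control barcodes held 0 UMIs of each of these genes. Over all such barcodes, the genes far above the other keratin-high cells included Hspb1, Wfdc18, Cited1 and Ltf. The 12 LYTACs barcodes held 97.3% of the Ptn UMIs, 80.7% of Ly6d, 65.4% of H2-K1, 43.4% of Nupr1 and 21.8% of Epcam in the LYTACs keratin-high cells, with 1.86% of the UMIs. In the control keratin-high cells the 2 barcodes held 100% of Ptn, 44.5% of Ly6d, 34.3% of H2-K1, 4.55% of Nupr1 and 2.86% of Epcam. They meet the rule and are counted as members, go against the hepatoma label by these genes, and the values they move most are given with and without them.

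The rule genes were not equal in the keratin-high cells. Krt19 supplied 43.8% of the rule keratin UMIs in LYTACs and 44.1% in control keratin-high cells, Krt7 supplied 36.8% and 35.9%, and Krt14 supplied 19.4% and 19.96%. Krt19 was the most abundant of the 3 in 53.6% of LYTACs and 57.6% of control keratin-high cells, Krt7 in 32.4% and 30.5%, and Krt14 in 14.03% and 11.9%.

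Of the rule genes, Krt14 differed most between keratin-high and keratin-lower cells. It was at 652 CPM in keratin-high and 109 in keratin-lower LYTACs cells, and at 682 in keratin-high and 130 in keratin-lower control cells. Its log2 ratios were 2.58 and 2.39, whereas those of Krt7 were 1.17 and 1.09 and those of Krt19 were 1.14 and 1.12 (LYTACs and control). It was also the most uneven: 12.2% of the keratin-high cells of either library held no Krt14 UMI, against 48.9% of keratin-lower LYTACs and 44.2% of keratin-lower control cells, and it was over 50% of the rule keratin UMIs in 4.75% of LYTACs and 4.57% of control keratin-high cells. In cells thinned to 5000 UMIs, a step that makes depth equal, 71.6% of LYTACs keratin-high cells and 71.6% of control keratin-high cells had a Krt14 UMI, against 27.4% and 29.5% of keratin-lower cells. Immune barcodes (at least 2 Ptprc UMIs and under 500 CPM of Krt8 and Krt18), which should lack the gene, had one in 1.86% and 1.90%, with median depths of 5940 and 6342 UMIs before thinning. The thinning left out 20 and 38 keratin-high cells, 224 and 115 keratin-lower cells and 1677 and 1327 immune barcodes.

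Within the keratin-high cells, which were chosen on their sum, the levels of the 3 keratins did not rise together. Spearman's rho between Krt14 and Krt19 was -0.31 in 442 LYTACs and -0.29 in 394 control cells, and rho between Krt7 and Krt14 was 0.01 and 0.02. Choosing cells by a sum constrains the values of its parts. Krt14 also ran against Alb, with rho of -0.30 and -0.30, while Krt19 ran with Alb at 0.18 and 0.26. Over all non-cycling cells of at least 10000 UMIs (1470 LYTACs and 1383 control), no threshold was set on the sum. There Krt14 and Krt19 had positive rho of 0.29 and 0.36, opposite in sign to the values inside the keratin-high cells. Krt7 and Krt19 had rho of 0.52 and 0.57, and Krt7 and Krt14 had 0.48 and 0.48. Krt14 and Alb still had -0.32 and -0.26. These values are across cells that share a library, and are not replicates.

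**Figure D2:**
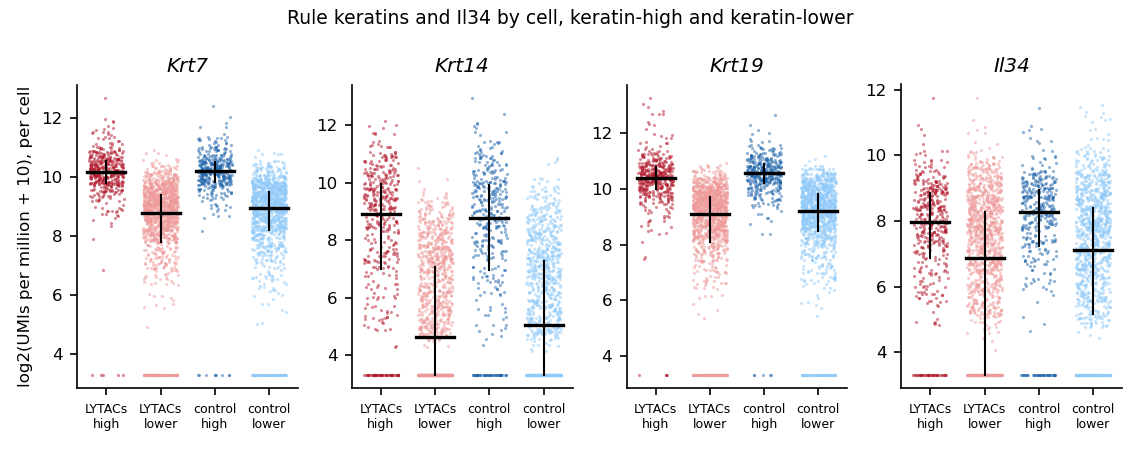
Level of Krt7, Krt14, Krt19 and Il34 in each keratin-high and keratin-lower cell (y axis, log2 of CPM + 10; points, cells; horizontal line, median; vertical line, quartiles), LYTACs in red and control in blue. The medians of Krt14 in keratin-high cells were 476 and 431 CPM, and the Il34 values of keratin-high and keratin-lower cells overlap most.

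Il34, given as a marker of these cells, did not pass 1.5-fold in the LYTACs library and was just past it in the control library. It was at 313 CPM in keratin-high and 230 in keratin-lower LYTACs cells, and at 364 in keratin-high and 242 in keratin-lower control cells, with log2 ratios of 0.44 (0.40 to 0.49) and 0.59 (0.55 to 0.63). By cell, the median was 239 CPM in keratin-high and 108 in keratin-lower LYTACs cells, and 299.5 in keratin-high and 128 in keratin-lower control cells. The highest cells held 3398 and 3409 CPM in LYTACs and 2801 and 2950 in control cells, so the sets overlap over the whole range. Thinned to 5000 UMIs, 64.0% of keratin-high LYTACs cells had an Il34 UMI (59.2 to 68.6%) against 53.1% of keratin-lower cells, and 73.3% of keratin-high control cells (68.4 to 77.8%) against 49.9%. Immune barcodes stood at 0.782% and 0.581%. Inside the keratin-high cells Il34 did not follow the summed keratins, with rho of -0.01 and -0.03. Across deep non-cycling cells rho was 0.32 and 0.36, which placed Il34 61st of 3280 genes. In these cells depth itself had rho of 0.27 and 0.20 with the summed keratins and of 0.25 and 0.26 with Il34. The part of depth in this and the other values across deep cells was not tested.

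The receptor that IL-34 binds and its other ligand differed as well, at low levels. Csf1r was at 18.8 CPM in keratin-high and 10.3 in keratin-lower LYTACs cells, and at 17.5 and 9.99 in keratin-high and keratin-lower control cells. Csf1, the second ligand of that receptor, was the other way: 7.94 in keratin-high and 14.04 in keratin-lower LYTACs cells, and 5.97 and 13.8 in control cells, each under 20% of its level in immune barcodes (92.9 and 113.6), where free RNA cannot be told apart from expression. Sdc1, which encodes syndecan-1, was at 52.1 and 37.5 CPM in LYTACs and 49.6 and 37.7 in control cells. Immune barcodes held Csf1r at 36.9 and 23.2 CPM, the same order as the keratin-high cells, and a part of free RNA in Csf1r was not tested.

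Other keratins were high with the rule keratins. Besides the 3 rule keratins, 7 keratins were measured in both libraries (at least 100 UMIs over the sets compared). Of these 7, 5 were at least 1.5-fold higher in keratin-high cells in both. The median log2 ratio of the 7 was 0.77 in the LYTACs and 0.74 in the control library, against -0.05 and -0.06 over all genes. The 7 include Krt8 and Krt18, which the hepatoma step used, with the same limit for keratin-high and keratin-lower cells. With the 3 rule genes, whose ratio the choice of cells fixes, the list had medians of 0.96 and 0.93. Over all genes measured, 2.28% were at least 1.5-fold higher in the LYTACs library, 1.97% in the control library and 1.04% in both. Krt6a was at 166 CPM in keratin-high and 26.0 in keratin-lower LYTACs cells, and at 115 in keratin-high and 24.6 in keratin-lower control cells. Krt16, which pairs with Krt6a, was at 25.1 and 1.15 in LYTACs and 29.2 and 3.37 in control cells. Krt6a had a UMI in 230 of the 442 LYTACs and 177 of the 394 control keratin-high cells. Krt16 came from fewer cells: 59 LYTACs and 58 control keratin-high cells had a UMI, and the 5 cells with the most held 42.0% and 37.8% of its UMIs. Krt8 reached log2 ratios of 0.77 and 0.73, Krt20 of 0.68 and 0.76 and Krt80 of 0.78 and 0.74, whereas Krt18 stayed at 0.48 and 0.47.

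Of 23 squamous and stress-epithelial genes measured, 6 were at least 1.5-fold higher in both libraries and 0 lower in both, with medians of 0.46 and 0.36. Without the Cdh1 barcodes 5 were higher, with medians of 0.39 and 0.36. Over all genes measured, 1.04% were higher and 5.27% lower by that fold in both. Sfn, which encodes 14-3-3 sigma, was at 250 CPM in keratin-high and 85.7 in keratin-lower LYTACs cells, and at 233 and 95.1 in control cells. Ly6d, a surface protein of squamous epithelium, was at 57.2 and 8.60 in LYTACs and 20.1 and 5.68 in control cells, and its level in the keratin-high cells without the Cdh1 barcodes was 11.3 and 11.2. S100a16 had log2 ratios of 0.86 and 0.77, Anxa1 (annexin A1) of 0.70 and 0.77, and Grhl1, a grainyhead transcription factor gene, of 0.91 and 0.79. The transcription factor genes Klf4 and Klf5 were near 0, at -0.03 and -0.07 for Klf4 and -0.03 and -0.15 for Klf5.

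Genes outside these lists were also higher. Slurp1, a secreted protein of squamous epithelium, was at 89.9 CPM in keratin-high and 31.8 in keratin-lower LYTACs cells, and at 94.6 and 38.0 in control cells. The trefoil factor genes Tff1 and Tff2, which encode small mucosal peptides, had log2 ratios of 1.36 and 1.67 for Tff1 and of 1.02 and 0.88 for Tff2. Immune barcodes held Tff1 at 41.7 and 48.1 CPM, near its level of 52.9 in keratin-high LYTACs cells and 71.7 in keratin-high control cells, and they held Tff2 at 1.77 and 0.766. A few cells carried Tff1: 63 LYTACs and 58 control keratin-high cells had a UMI, and 5 cells held 45.2% and 57.2% of the UMIs. The remaining genes of the 15 with the greatest ratio in both libraries were Tppp3, Nupr1, Mal, Bok, Fam214b, Anxa8, Gprc5a, Tubb4b and Slc35e4, with log2 ratios between 0.78 and 1.69. The ratio of Nupr1 was 1.69 in LYTACs and 1.12 in control, and 0.92 and 1.06 without the Cdh1 barcodes. The genes whose level across deep non-cycling cells was most like the rule keratins were Krt8 (rho 0.67 and 0.68), Lgals3 (0.63 and 0.67), Anxa2 (0.58 and 0.58), Clic1 (0.51 and 0.55) and Sfn (0.51 and 0.51). Over all non-cycling cells Tnfrsf12a took the place of Sfn, at 0.55 and 0.51.

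**Figure D3:**
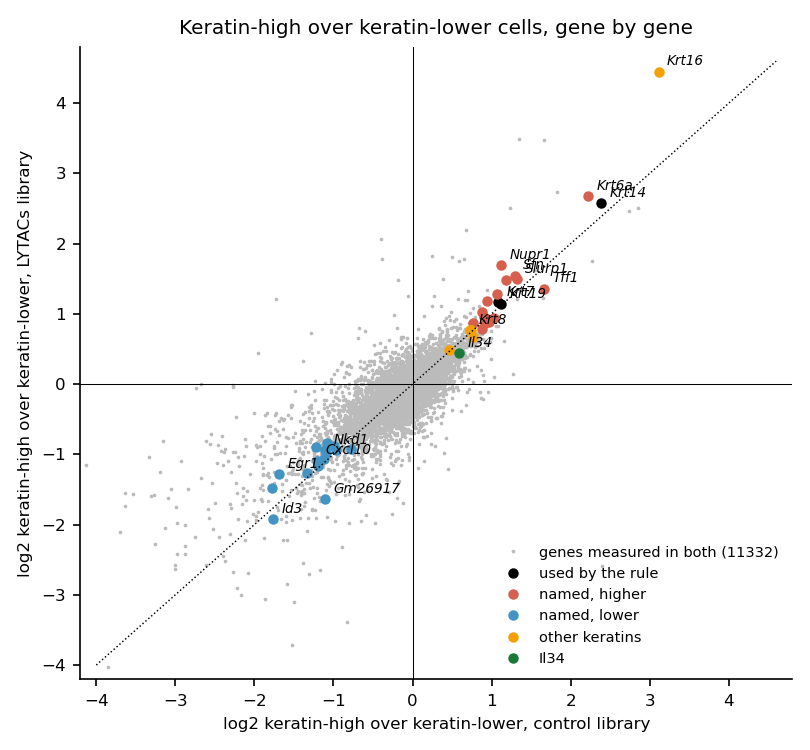
Log2 ratio of keratin-high over keratin-lower cells for each gene measured in both libraries (x axis, control; y axis, LYTACs; dotted line, equal ratios). Among the coloured genes (rule genes, named genes, other keratins and Il34), Krt16, Krt6a and Krt14 lie furthest to the upper right and Id3 to the lower left, and Il34 (0.44 in LYTACs and 0.59 in control) lies near the bulk of genes; some grey genes lie further out, and 5 genes lie beyond the axes and 1 with 0 UMIs in a set is not drawn.

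Few junction and adhesion genes passed 1.5-fold, where the shares over all genes were 1.04% higher and 5.27% lower in both libraries. Of 31 measured, 1, Cdh1, was past it in both libraries, 23 had positive ratios in both, and the medians were 0.36 and 0.24. Without the Cdh1 barcodes, which hold 90.3% of Cdh1 UMIs in LYTACs keratin-high cells, 0 of 29 passed 1.5-fold in both and the medians were 0.25 and 0.23. Dsp (desmoplakin) was at 292 CPM in keratin-high and 218 in keratin-lower LYTACs cells, and at 323 and 228 in control cells. Ppl (periplakin) had log2 ratios of 0.57 and 0.67 and Itgb4, the integrin of hemidesmosomes, of 0.58 and 0.50. The mesenchymal filament gene Vim was higher too, at 0.39 and 0.43, and the mesenchymal list had medians of 0.17 and 0.21 with 1 of 18 genes (Col4a2, a basement membrane collagen) past 1.5-fold in both.

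Of the hepatocyte and biliary genes, none was at least 1.5-fold higher in keratin-high cells of both libraries. Over all genes measured, 1.04% were higher and 5.27% lower by that fold in both. Alb was at 1284 CPM in keratin-high and 1171 in keratin-lower LYTACs cells, and at 1284 in keratin-high and 1124 in keratin-lower control cells. Of 16 hepatocyte genes measured, 0 were higher and 1 (Nr1h4, a bile acid receptor gene) lower by 1.5-fold in both, with medians of -0.07 and 0.00. Of 14 biliary and progenitor genes, 0 were higher and 1 (Pkhd1) lower in both, 9 had positive ratios in both, and the medians were 0.21 and 0.16. Epcam had 0.93 and 0.54, and Tnfrsf12a, a receptor of the TNF family, 0.54 and 0.65. Without the Cdh1 barcodes Epcam was at 214 CPM in keratin-high and 136 in keratin-lower LYTACs cells, and at 162 and 111 in control cells. Sox9, a transcription factor gene of bile duct cells, was at 309 in keratin-high and 284 in keratin-lower LYTACs cells, and at 319.3 and 320.3 in control cells. Krt7 and Krt19, the bile duct keratins, were thus high in cells whose Sox9 was nearly that of the keratin-lower cells.

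Wnt target genes were lower. Of 14 measured, 4 were at least 1.5-fold lower and 0 higher in keratin-high cells of both libraries, with medians of -0.38 and -0.33; over all genes 8.18% were lower by that fold in the LYTACs library, 9.88% in the control library and 5.27% in both. Nkd1, a Wnt feedback inhibitor, was at 85.8 CPM in keratin-high and 165 in keratin-lower LYTACs cells, and at 77.8 and 167 in control cells. Znrf3, which removes Wnt receptors, was at 51.8 and 88.3 in LYTACs and 57.5 and 92.1 in control cells. Axin2 had log2 ratios of -0.47 and -0.51, whereas Ccnd1 and Glul were slightly positive, at 0.24 and 0.22 for Ccnd1 and 0.26 and 0.22 for Glul. Across deep cells Nkd1 ran against the rule keratins, with rho of -0.35 and -0.38, the most negative of 3280 genes when each is taken at the library nearer to 0.

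Every cell had passed the limit on Mki67, Top2a and Cenpf, whose summed median by cell was 20.7 CPM in keratin-high and 18.5 in keratin-lower LYTACs cells. In control cells these medians were 19.2 and 22.8. Without the Cdh1 barcodes, Mki67 alone was at 5.07 in keratin-high and 13.3 in keratin-lower LYTACs cells, and at 5.70 and 14.1 in control cells. Cell cycle genes that the rule did not use were lower as well. Of 29 measured, 11 were at least 1.5-fold lower and 0 higher in both libraries, with medians of -0.66 and -0.58. The share lower in both over all genes was 5.27%. Mcm3, a subunit of the replicative helicase, was at 11.8 CPM in keratin-high and 25.4 in keratin-lower LYTACs cells, and at 12.6 and 25.6 in control cells, against 37.5 and 40.1 in immune barcodes. Hmgb2, a chromatin protein of dividing cells, had log2 ratios of -0.68 and -0.87. The inhibitor gene Cdkn1a (p21) was at 388 in keratin-high and 282 in keratin-lower LYTACs cells, and at 347 and 245 in control cells, and Btg2 had ratios of -0.73 and -0.87. Of 12 cell cycle inhibitor genes, 0 were higher and 1 (Btg2) lower by 1.5-fold in both.

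Most early response genes measured and several cytokines were on the low side. Id3, an inhibitor of helix-loop-helix factors, was at 15.7 CPM in keratin-high and 59.4 in keratin-lower LYTACs cells, and at 17.8 and 60.6 in control cells. Egr1, an immediate-early factor, was at 81.6 and 199 in LYTACs and 67.5 and 217 in control cells. Of 16 immediate-early genes, 4 (Fos, Egr1, Ier2 and Atf3) were at least 1.5-fold lower in both and 0 higher. The shares over all genes were 5.27% lower and 1.04% higher in both. Of the 16, 10 had negative and 4 had positive ratios in both libraries. Ier3 was among the positive ones, at 408 in keratin-high and 284 in keratin-lower LYTACs cells, and at 243 and 190 in control cells. Of 22 secreted cytokines and growth factors, 6 were lower and 1, Pdgfa, was higher in both, with medians of -0.24 and -0.09. Cxcl10, a T cell chemokine, was at 120 in keratin-high and 256 in keratin-lower LYTACs cells, and at 90.9 and 211 in control cells, while Pdgfa was at 383 and 237 in LYTACs and 409 and 253 in control cells. Of the other named lower genes, Sntb1, Nuak1, Zc3h12c, Pvt1, Rbms3, Mir99ahg, Gm41609, Gm4951, Gm26917, Gm42047 and 2610037D02Rik, Gm26917 had log2 ratios of -1.64 and -1.10, and 5 cells held 35.8% of its UMIs in keratin-lower LYTACs and 25.8% in keratin-lower control cells.

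Markers of other cell types were low in the keratin-high cells, apart from genes that hepatoma cells may hold themselves. For immune markers the choice of cells bears on this. The rule allowed at most 1 Ptprc UMI and immune barcodes held at least 2, so the comparison with immune barcodes is not a test. The neutrophil list summed to 121 CPM in keratin-high and 191 in keratin-lower LYTACs cells, and to 95.6 and 83.8 in control cells, against 5771 and 1076 in immune barcodes. Most of that was the chemokine gene Cxcl3, at 91.2 and 100.5 in LYTACs and 92.98 and 72.6 in control cells. The other 3 neutrophil markers measured in both libraries, S100a8, S100a9 and Il1b, were lower in keratin-high cells of both, with S100a9 at 8.94 and 29.2 in LYTACs and 0.552 and 2.47 in control cells. Cxcl2 was at 104 in keratin-high and 253 in keratin-lower LYTACs cells, against 27.7 and 45.6 in control cells, with 6994 and 773 in immune barcodes. Endothelial markers summed to 15.8 and 32.7 CPM in LYTACs and 14.5 and 33.0 in control cells. Fibroblast markers summed to 370 and 328 in LYTACs and 272 and 194 in control cells, nearly all of it Dcn (decorin), at 368 in keratin-high LYTACs and 269 in keratin-high control cells, and T and NK cell markers to 82.0 and 62.5 and to 86.3 and 70.6. Macrophage markers summed to 2040 and 2047 in LYTACs and 1950 and 1883 in control cells, nearly all of it Cd74, an antigen presentation gene. The part of these transcripts in the gene lists was not tested.

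**Figure D4:**
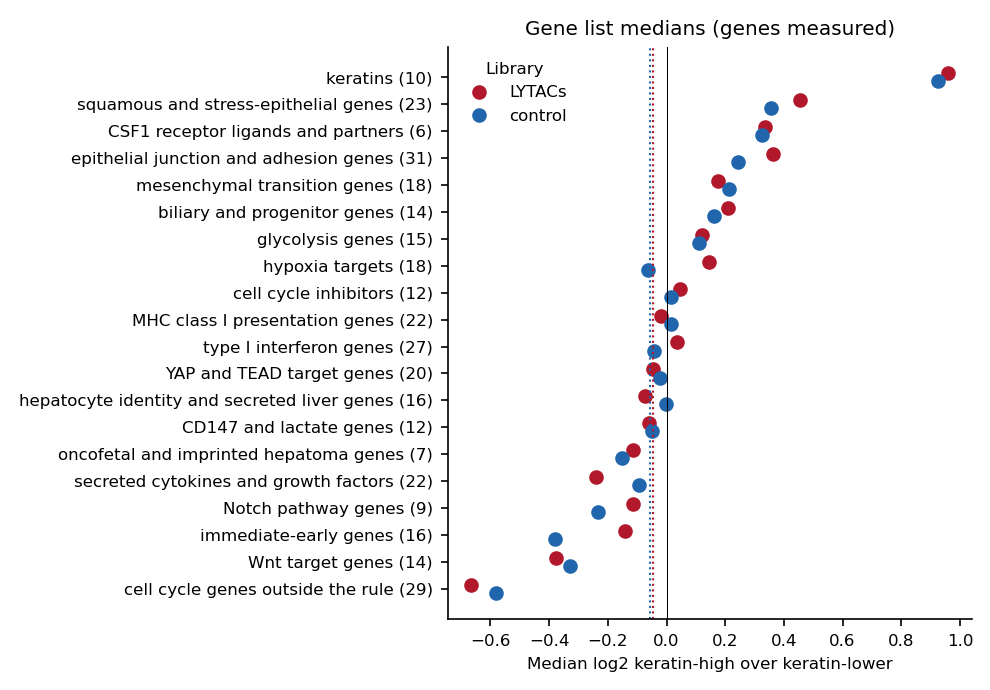
Median log2 ratio of keratin-high over keratin-lower cells for each gene list with at least 5 genes measured in both libraries (x axis; LYTACs in red, control in blue; dotted lines, median over all genes of each library). Keratins, which include the 3 rule genes, lie highest at 0.96 and 0.93 and cell cycle genes outside the rule lowest at -0.66 and -0.58.

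Lactate and glycolysis genes hardly distinguished the keratin-high cells. Bsg was at 1262 CPM in keratin-high and 1021 in keratin-lower LYTACs cells, and at 1301 and 1050 in control cells. Ldha (lactate dehydrogenase A) had log2 ratios of 0.18 and 0.21, and Slc16a1, which encodes the lactate transporter MCT1, of 0.09 (-0.04 to 0.21) and -0.09 (-0.23 to 0.04). Of 12 CD147 and lactate genes and 15 glycolysis genes, 0 were past 1.5-fold in both libraries, with medians of -0.06 and -0.05 for the first list and 0.12 and 0.11 for the second. Slc16a3 (MCT4) had 3 UMIs in LYTACs and 2 in control keratin-high cells, at or under the 3 counts taken as the floor, so no ratio is given. Of 27 type I interferon genes and 22 MHC class I presentation genes, 0 were higher in both, and 2 interferon genes (Ifit1 and Ifit2) were lower. Past 1.5-fold in both libraries, hypoxia targets had 0 higher and 1 lower of 18, Notch pathway genes 0 of 9 either way, YAP and TEAD targets 0 higher and 2 lower of 20, and oncofetal genes 0 higher and 1 lower of 7. Over all genes measured, 1.04% were higher and 5.27% lower in both. The few lower genes of these lists are not read as a result about the lists.

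The comparison of LYTACs with control within the keratin-high cells addresses the treatment. Of 10295 genes measured, 168 (1.63%) were at least 1.5-fold higher and 95 (0.923%) lower in LYTACs keratin-high cells, against 1.79% higher and 1.96% lower of 12397 genes in keratin-lower cells. Without the Cdh1 barcodes, 82 were higher and 99 lower. The rule keratins were close in both libraries, since the threshold was set in each: log2 ratios were 0.01 for Krt7, -0.06 for Krt14 and -0.03 for Krt19. Il34 was lower in LYTACs keratin-high cells at -0.22 (-0.26 to -0.17), or -0.19 without the Cdh1 barcodes, and at -0.07 in keratin-lower cells.

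The transcript of the targeted protein was nearly equal. Bsg had a log2 ratio of -0.04 (-0.07 to -0.02) in keratin-high and -0.04 in keratin-lower cells, Ldha of -0.02 (-0.05 to 0.01) and Slc16a1 of 0.19 (0.04 to 0.35). A LYTAC works on protein, and transcript levels do not check the treatment. Of 11 CD147 and lactate genes measured in keratin-high cells, 0 passed 1.5-fold either way, and of 14 glycolysis genes 1 (Pfkfb3, under 20% of its level in immune barcodes) was higher, and 0 without the Cdh1 barcodes.

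Several of the genes that were higher in LYTACs keratin-high cells were carried by the Cdh1 barcodes. Ptn (pleiotrophin, a secreted growth factor) was at 79.6 CPM in LYTACs and 12.2 in control keratin-high cells, but 13 LYTACs and 2 control cells held all of it, and without the Cdh1 barcodes 45 and 0 UMIs were left. Ly6d had a log2 ratio of 1.51, or 0.01 (-0.27 to 0.29) without them. Nupr1, a stress-induced nuclear protein, had 0.71 with and -0.02 (-0.10 to 0.06) without them. Epcam, an epithelial adhesion protein, was at 268 in LYTACs and 166 in control keratin-high cells, with a log2 ratio of 0.69, or 0.40 (0.34 to 0.47) without them. Fos had 0.63 with and 0.27 without them.

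Other higher genes moved less without those barcodes. Ier3, an early response gene, was at 408 CPM in LYTACs and 243 in control keratin-high cells, with a log2 ratio of 0.75 and of 0.70 without the Cdh1 barcodes; it was at 0.58 in keratin-lower cells and 1.92 in immune barcodes. Cxcl5, a neutrophil chemokine, was at 52.5 in LYTACs and 23.98 in control keratin-high cells, with a log2 ratio of 1.13, or 0.90 (0.73 to 1.07) without them, and 0.46 in keratin-lower cells; immune barcodes held it at 1.28 and 0.794. Lifr, the receptor of leukaemia inhibitory factor, was at 128.5 in LYTACs and 80.5 in control keratin-high cells, with 0.67, and 0.69 without them. Pnrc1 and Gadd45b had 0.63 and 0.60, and 0.58 and 0.54 without them, which is under 1.5-fold; in keratin-lower cells they had 0.35 and 0.60. The interval of Cxcl5 without the Cdh1 barcodes and that of Lifr lay above their intervals in keratin-lower cells (0.36 to 0.57 for Cxcl5 and 0.30 to 0.40 for Lifr). These intervals cover counting error only, and not the spread among cells. Cxcl5 UMIs were in 140 LYTACs and 95 control keratin-high cells, and the 5 cells with the most held 30.7% and 26.3% of them. Lifr UMIs were in 380 and 325 such cells, with 11.8% and 6.79% in the 5 highest. In addition Cxcl2 (log2 ratio 1.90) and Tmsb4x (1.96, or 1.20 without the Cdh1 barcodes) were higher, at levels under 20% of those in immune barcodes, where free RNA cannot be told apart from expression.

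The lower genes differed in how far they extended beyond the keratin-high cells. Edn2 (endothelin 2, a vasoactive peptide) was at 26.5 CPM in LYTACs and 54.8 in control keratin-high cells, with a log2 ratio of -1.04 (-1.20 to -0.89); it was at 4.81 in keratin-lower LYTACs and 8.22 in keratin-lower control cells. Edn2 UMIs were in 86 LYTACs and 99 control keratin-high cells, and the 5 cells with the most held 36.0% and 33.6% of them. Col8a1, a collagen gene, had -0.76 in keratin-high and -0.42 in keratin-lower cells, and Plxna2, Mir100hg, Gm49890 and Peak1 had between -0.74 and -0.62 in keratin-high and between -0.50 and -0.24 in keratin-lower cells. Camk1d was at 940 in LYTACs and 1774 in control keratin-high cells, with -0.92, and Cdk8, Cmss1 and Gm19951 had -0.90, -0.74 and -0.97. These 4 were also lower in the keratin-lower cells, at -0.89, -0.76, -0.70 and -0.96, and in immune barcodes, at -0.61, -0.89, -0.66 and -0.80 (Camk1d, Cdk8, Cmss1 and Gm19951), so their difference was seen in all 3 sets of cells.

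**Figure D5:**
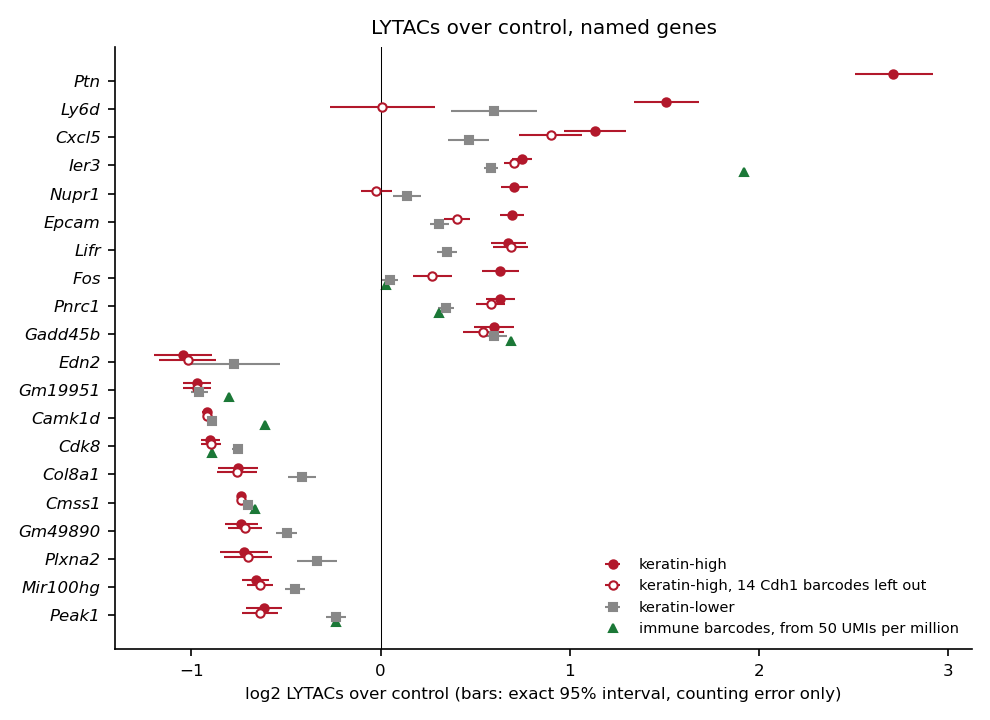
Log2 ratio of LYTACs over control (x axis; bars, exact 95% intervals) for the 20 named genes in keratin-high cells (filled red), in keratin-high cells without the 14 Cdh1 barcodes (open red), in keratin-lower cells (grey) and in immune barcodes that held at least 50 CPM (green). Ly6d and Nupr1 move to 0.01 and -0.02 without those barcodes, and Camk1d, Cdk8, Cmss1 and Gm19951 are low in every set; Ptn is drawn only with all barcodes.

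The neutrophil list stood furthest from 0 between LYTACs and control keratin-high cells, with a median log2 ratio of 2.91 and 3 higher of 4. This was not particular to the keratin-high cells, since the keratin-lower cells had a median of 3.12 with 6 higher of 7. With cells chosen on 1 part of the UMIs and measured on the other, the keratin-high median was -0.079. Fewer genes reach the minimum count on a part of the UMIs, so that median can rest on other members of this short list. It does not show that the same genes turned. S100a9 was at 8.94 CPM in LYTACs and 0.552 in control cells, against 2006 and 372 in immune barcodes. That is under 20% of the immune level, where free RNA cannot be told apart from expression. Over all genes measured in keratin-high cells, 1.63% were higher and 0.923% lower by at least 1.5-fold, beside which the list counts stand. Keratins had a median log2 ratio of -0.01 with 0 of 10 past 1.5-fold, Wnt targets -0.11 with 0 of 13, hepatocyte genes 0.01 with 2 higher of 16 (Fgg and Foxa1, 0 without the Cdh1 barcodes), and MHC class I presentation genes 0.00 with 1 higher of 22 (H2-K1, at 28.7 CPM in LYTACs and 11.4 in control cells, 65.4% of the LYTACs UMIs in the Cdh1 barcodes, and 1953 and 2131 in immune barcodes; without the Cdh1 barcodes it was at 10.1 and 7.53). Immediate-early genes had a median of 0.25 with 2 higher of 16 (Fos and Ier3), and 0.17 with 1 of 16 without the Cdh1 barcodes. In keratin-lower cells they had 0.05 with 0 higher of 17. Secreted cytokines had a median of 0.28 with 9 higher of 27 in keratin-lower cells. Their keratin-high median was 0.20 (0.24 without the Cdh1 barcodes), against 0.00 over all genes measured. Without those barcodes 2 of 19 were higher, and with them 4 of 20. Of these Cxcl5 was described above, Cxcl1 was at 34.5 in LYTACs and 19.8 in control cells, and Cxcl2 and Lcn2 were under 20% of their levels in immune barcodes. Type I interferon genes had a median of -0.10 with 2 lower of 27, Ifit1 (1.24 CPM in LYTACs and 5.58 in control cells) and Ifit3b (1.77 and 4.81).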

How the data were processed

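Single-cell RNA-seq was deposited for 1 LYTACs and 1 control library as raw UMI counts per gene and barcode. Per the submitters' processing notes the authors used Cell Ranger 3.0.2 and mm10, whereas the file header names cellranger 7.1.0, so the version that made these counts is not settled. Samples were grouped by the treatment label, and 0 columns of other samples were present. The keratin-high cells and all gene lists were chosen with earlier results of these data known. UMIs were summed over the cells of a set and divided by that set's total to give CPM, UMIs per 1000000. Ratios are log2 with an exact conditional binomial 95% interval, shares have Clopper-Pearson intervals, and both cover counting error only. A gene counted as measured with at least 100 UMIs over the sets compared, and as higher or lower at 1.5-fold or more. No test across samples could be made with 1 library per group.

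Named genes had at least 50 CPM in the higher set, an interval without 0 and at least 20% of their immune level. They were the 15 with the greatest ratios each way in both libraries, the 10 each way for treatment, the 5 whose level was most like the rule keratins, and up to 4 members of each list by level or ratio. Some list members and sequences were picked after their values were seen. Doublets were not removed in the values reported; an alternative left out 535 LYTACs and 402 control barcodes with the highest Scrublet scores (0.8% per 1000 barcodes), 6 and 2 of them keratin-high. Total depth was 149812326 UMIs in the LYTACs and 143495332 in the control library. Alternatives changed the share of cells kept, barcode filters, depth matching, the ranking genes, the scaling and the minimum count. The calculations were tested on simulated counts and used Python 3.11.15, numpy 2.4.6, scipy 1.17.1, pandas 2.3.3, scanpy 1.11.5 and matplotlib 3.10.9.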

Additional observations from a re-analysis of the deposited data

Results flagged for a closer look

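For 7 genes the keratin-high cells lay on opposite sides of the keratin-lower cells in the LYTACs and control libraries, each by at least 1.5-fold, and the difference between the libraries was not tested. The log2 ratios of keratin-high over keratin-lower cells were 1.22 in LYTACs and -1.73 in control for 1700008O03Rik, 0.75 and -0.60 for Cadm4, 0.79 and -0.68 for S100g, 0.66 and -0.69 for Stat4, and -2.59 and 2.40 for Syt1. Each of these 5 genes had at most 93 UMIs in any set, except 1700008O03Rik with 224 in keratin-lower control cells. Few cells carried them: in keratin-high LYTACs cells 5 cells held 95.2% of the S100g, 86.0% of the Stat4 and 91.5% of the 1700008O03Rik UMIs, and in keratin-high control cells 5 cells held 94.9% of the Syt1 UMIs. The Cdh1 barcodes held 36.4% of the Cadm4 UMIs in keratin-high LYTACs cells. Ltf had 0.77 in LYTACs and -6.33 in control, the second from 1 UMI in keratin-high control cells, and Plet1 had 0.73 and -1.28. The Cdh1 barcodes held 97.1% of the Ltf UMIs in keratin-high LYTACs cells and 96.8% in keratin-lower control cells, and 89.2% and 79.0% of the Plet1 UMIs there. Wfdc18 had 171 UMIs in keratin-high and 237 in keratin-lower LYTACs cells, and 0 and 179 in control cells, so no ratio is given.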

How the results depend on the processing

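The counts of 118 genes higher and 597 lower in keratin-high cells of both libraries, and of 168 higher and 95 lower in LYTACs keratin-high cells, depended on several choices. With the top 10% of cells 180 genes were higher in both. Choosing cells on 1 part of the UMIs and measuring on the other gave 311 lower in both. The mean over cells gave 922 lower in both, and 440 higher and 277 lower under LYTACs. A minimum of 10 UMIs gave 239 and 2258 in both, and 1308 and 793 under LYTACs. Higher genes under LYTACs numbered 81 when ranked without Krt19, 82 without the Cdh1 barcodes, of which 75 were among the 168, and 57 when at least 10000 UMIs were also asked; the last 2 alternatives were chosen after seeing the data. The 60 named ratios of keratin-high over keratin-lower cells kept their direction under every alternative. Of the 20 named genes between LYTACs and control, those past 1.5-fold numbered 13 of 19 when ranked without Krt19 and from 10000 UMIs without the Cdh1 barcodes, 14 of 19 without those barcodes, 14 within 5 depth bins, 15 with the top 10% or 50% of cells or the mean over cells, and 17 to 20 otherwise.

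Among values past 1.5-fold, Nupr1 under LYTACs turned sign, at -0.017 without the Cdh1 barcodes, as did medians of short marker lists. The neutrophil median in control, -1.31, became 0.32 with at least 2000 UMIs and at most 10% mitochondrial UMIs, 0.45 with divided UMIs, 0.33 from 10000 UMIs and 0.34 from 10000 UMIs without the Cdh1 barcodes. With divided UMIs the neutrophil median of LYTACs over control, 2.91, became -0.079 and the fibroblast median in LYTACs, -3.15, became 0.23. Counting every list median of at least 0.1 in size, 20 turned sign under some alternative: 10 of the T and NK list, 7 of the neutrophil or fibroblast list, and 1 each of immediate-early genes in LYTACs (-0.14, or 0.077 with the top 10% of cells), CSF1 receptor genes (0.26, or -0.082 ranked without Krt19) and oncofetal genes (-0.12, or 0.052 with the mean over cells) under LYTACs. With divided UMIs 10143 genes reached the minimum of 100 UMIs in both libraries, against 11333 in the main values. The median of a short list can thus rest on other members, and a turned sign does not show that the same genes turned. Apart from the change in barcodes or genes that each alternative makes, the cause was not tested. No paired analysis was possible because each group has 1 library, and no replicate could be left out. Depth limits the genes under 100 UMIs.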
